A study of Homo sapiens with 6 samples.

Results

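The integrin subunits and the proteins that tie them to the actin cytoskeleton are described here in A549 cells, a human lung adenocarcinoma line of alveolar origin, grown in S-AlgLung or AlgLung hydrogels. The genes were chosen by symbol: 21 integrin subunit genes and 19 focal adhesion genes, 40 of the 62703 genes in the deposited count table, and all 40 were found as 1 row each. RNA sequencing gave 3 libraries of cells in S-AlgLung and 3 of cells in AlgLung. Both groups were the same cell line, kept in DMEM/F12 medium with serum, and the hydrogel was the only difference that the labels name. The labels do not spell out the S, the composition of either gel or the time in culture; the title of the series speaks of matrix sulfation. Nothing says whether the libraries of a group came from separate cultures, so a p-value here reflects only how far these libraries spread, and that spread may be technical.

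Integrins are receptors of 1 alpha and 1 beta chain that span the membrane and bind matrix proteins, and the pairing sets the ligand. The collagen-binding alpha chains all pair with beta-1, the laminin receptors use beta-1 or beta-4, and the alpha-V, alpha-5 and alpha-8 receptors bind proteins that carry an RGD motif, among them fibronectin, vitronectin and latent TGF-beta. Inside the cell, talin and kindlin bind the beta tail and switch the receptor to its active state, and kinases, adaptors and tensins then gather into the focal adhesion that anchors actin. In lung epithelium the laminin receptor α6β4 holds cells on the basement membrane.

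Total counts ran from 22978408 to 26495444 per library, and genes under about 1 CPM (read counts per 1000000, with library sizes scaled by the trimmed mean of M-values, TMM) are the least precise. Of the epithelial genes used to check the line, KRT8, KRT18, AKR1B10 and ALDH1A1 were at 1326 CPM or more in every library, whereas EPCAM was at only 3.83 ± 1.37 CPM in S-AlgLung and 1.95 ± 0.406 CPM in AlgLung (SD, n = 3 each). The alveolar type 2 gene SFTPC had at most 0.0844 CPM in any library. On the second principal component, which held 28.9% of the variance, S-AlgLung replicate 3 lay at 49.2, against -20.2 and -33.4 for the other S-AlgLung libraries. Its summed level of the nuclear RNAs MALAT1 and NEAT1 was 241 CPM, while S-AlgLung replicates 1 and 2 had 75.8 and 44.5 CPM and AlgLung had 59.1 to 66.8 CPM. Where a gene of the 40 gains a call or changes sign without this library, both values are given. The part of RNA quality in the results was not tested.

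Of the 40 genes, 37 had enough counts to be tested, and 5 of these changed between the hydrogels. ITGA10, ITGA11 and TNS1 rose in S-AlgLung, and ITGA2 and ITGB8 fell. The test was the edgeR quasi-likelihood F test over all 18544 tested genes, with Benjamini-Hochberg adjustment and a gene called at an adjusted p under 0.05. The share called was 13.5% of the tested members and 5.14% of all tested genes. The 40 genes were chosen with earlier results of these data known, so these shares carry no test. By direction, 3 of the 37 were called higher, against 3.15% of all tested genes, and 2 were called lower, against 1.99%. The members' median log2 fold change (S-AlgLung minus AlgLung throughout) was -0.04, beside 0.03 for all tested genes. Without S-AlgLung replicate 3 the same 5 genes stayed called in edgeR. Their log2 fold changes were then 1.81 for ITGA10, 0.85 for ITGA11, 1.03 for TNS1, -0.84 for ITGA2 and -1.32 for ITGB8. In 15 of the 37 the libraries of the hydrogels did not overlap, 4 with S-AlgLung above and 11 with S-AlgLung below; over all tested genes 18.4% did not overlap, 10.4% above and 8.05% below. The called genes were unevenly spread: 4 of 18 tested integrin subunits (22.2%) and 1 of 19 focal adhesion proteins (5.26%). The share among focal adhesion proteins was close to that of all genes, and the difference between these shares was not tested. The genes left untested, ITGA4, ITGA8 and ITGB6, had 33, 9 and 40 counts in all 6 libraries together. In these bulk libraries, fewer cells with a transcript and less of it per cell cannot be told apart.

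**Figure D1:**
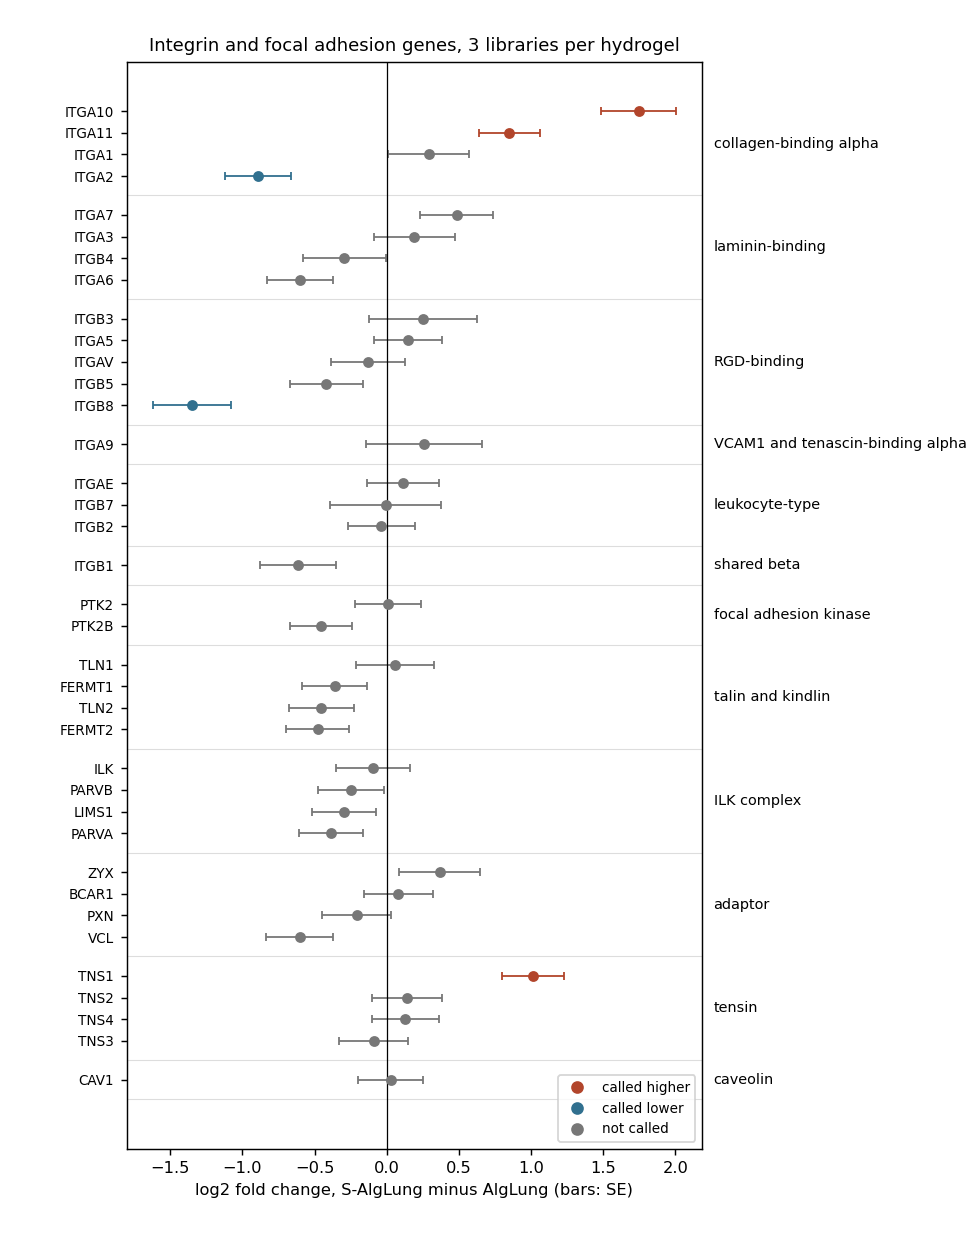
Log2 fold change of the 37 tested integrin and focal adhesion genes by class (horizontal axis, S-AlgLung minus AlgLung; bars, SE; 3 libraries per hydrogel). ITGA10, ITGA11 and TNS1 lie to the right of 0 and ITGA2 and ITGB8 to the left as called genes; the other 32, in grey, lie between -0.62 and 0.49.

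Of the 4 collagen-binding alpha chains, ITGA1, ITGA2, ITGA10 and ITGA11, all tested, 3 changed, and not in the same direction. ITGA10 encodes a collagen receptor chain best known from cartilage and ITGA11 one of mesenchymal cells; both rose. ITGA2 encodes the alpha chain of α2β1, the usual collagen receptor of epithelium, and it fell.

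ITGA10 (ENSG00000143127; GRCh38 chromosome 1, 145891208 to 145910111, minus strand) had 21.6, 17.7 and 15.8 CPM in the S-AlgLung libraries, against 3.33, 7.33 and 5.79 CPM in the AlgLung libraries. The lowest S-AlgLung library, replicate 3, thus lay above the highest AlgLung library, replicate 2. The means were 18.4 ± 2.95 and 5.49 ± 2.01 CPM (SD, n = 3 each), a 3.35-fold difference (log2 fold change 1.75, SE 0.26, edgeR adjusted p = 4.513e-05). ITGA10 was called in all 13 alternative analyses; in the 6 that leave out a library its log2 fold change ran from 1.44 to 2.01.

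ITGA11 (ENSG00000137809; chromosome 15, 68296532 to 68432163, minus strand) had 57.9, 49.6 and 50.5 CPM in S-AlgLung and 26.3, 29.1 and 32.2 CPM in AlgLung. The groups did not overlap, and the spread within each was small beside the gap between them. The means of 52.6 ± 4.55 and 29.2 ± 2.93 CPM (SD, n = 3 each) differed 1.80-fold (log2 fold change 0.85, SE 0.21, edgeR adjusted p = 0.01255). The call was lost with scaling by total counts (0.75, adjusted p = 0.06432), without S-AlgLung replicate 1 (0.0656) and without AlgLung replicates 1 (0.1433), 2 (0.0721) or 3 (0.1013), in edgeR throughout. Of 7 fibroblast markers, 2 had enough counts to be tested and none was called. The list summed to 4.18 to 5.89 CPM in S-AlgLung and 4.81 to 5.71 CPM in AlgLung. DCN was at 0 in 5 libraries and PDGFRB at or under 0.115 CPM in all. COL1A1 and THY1 were detected, with 440 and 206 counts in all libraries together. COL1A1 had a log2 fold change of 0.37 (edgeR adjusted p = 0.649), and the other tested marker was at -0.38 (0.7422).

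ITGA2 (ENSG00000164171; chromosome 5, 52989340 to 53094779, plus strand) had 45.4, 38.1 and 34.4 CPM in S-AlgLung, against 88.7, 55.3 and 74.8 CPM in AlgLung. All 3 S-AlgLung libraries were below the lowest AlgLung library, and the AlgLung libraries varied more among themselves. Its means were 39.3 ± 5.57 and 72.9 ± 16.8 CPM (SD, n = 3 each), a log2 fold change of -0.89 (SE 0.23, edgeR adjusted p = 0.01708), or 1.86-fold lower in S-AlgLung. Without AlgLung replicate 1 or 3 the call was lost (log2 fold changes of -0.77 and -0.92, edgeR adjusted p = 0.1227 and 0.06232).

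ITGA1 lies close to ITGA2 on chromosome 5 (52787916 to 52959209) and encodes the chain of α1β1. It had 3.77 ± 0.249 CPM in S-AlgLung and 3.08 ± 0.785 CPM in AlgLung (SD, n = 3 each), with a log2 fold change of 0.29 (SE 0.28, edgeR adjusted p = 0.7348). Its value is uncertain, since it shares 499 exon bases with PELO, which had 5499 counts where ITGA1 had 505.

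**Figure D2:**
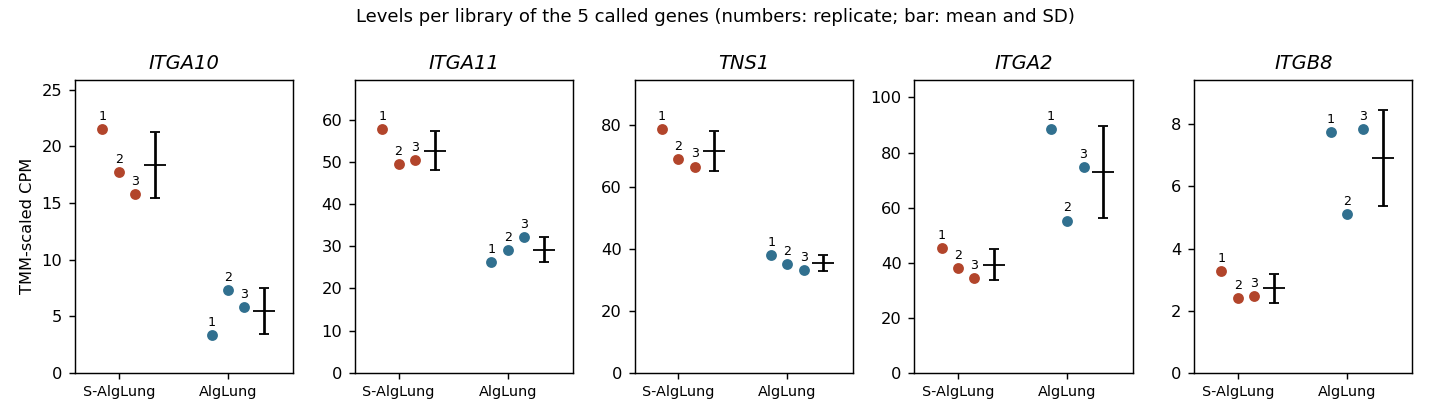
TMM-scaled CPM (vertical axes, each from 0) of the 5 called genes in each library, S-AlgLung left of AlgLung, with the mean and SD beside the points and the replicate number above each. In none of the 5 panels do the points of the hydrogels overlap; ITGA10, ITGA11 and TNS1 are higher in S-AlgLung and ITGA2 and ITGB8 lower.

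Levels of different genes can be compared only per length, as CPM per kb of the annotated exons. On that scale the summed collagen-binding alpha level was made up differently in the hydrogels. ITGA2 made up 39.0%, 38.8% and 37.1% of it in the S-AlgLung libraries, against 78.2%, 63.8% and 69.8% in the AlgLung libraries. ITGA11 held 37.5% ± 1.80 in S-AlgLung and 21.0% ± 3.84 in AlgLung, and ITGA10 held 22.6% ± 1.01 and 7.09% ± 3.49 (SD, n = 3 each). ITGA2 was thus the most abundant of the 4 in every AlgLung library, whereas in S-AlgLung it and ITGA11 had similar shares, and ITGA11 was above it in replicate 3, at 39.5%. Their order in S-AlgLung depends on the listed lengths, 7896 bases for ITGA2 and 10866 for ITGA11. In CPM, not divided by length, ITGA11 was above ITGA2 in every S-AlgLung library and below it in every AlgLung library. These shares follow from the called genes and were looked at after their values were known, so they carry no test. ITGA1 had 1.59% ± 0.274 and 1.27% ± 0.215. Leaving it out moved the mean share of ITGA2 only to 39.0% in S-AlgLung and 71.5% in AlgLung.

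**Figure D3:**
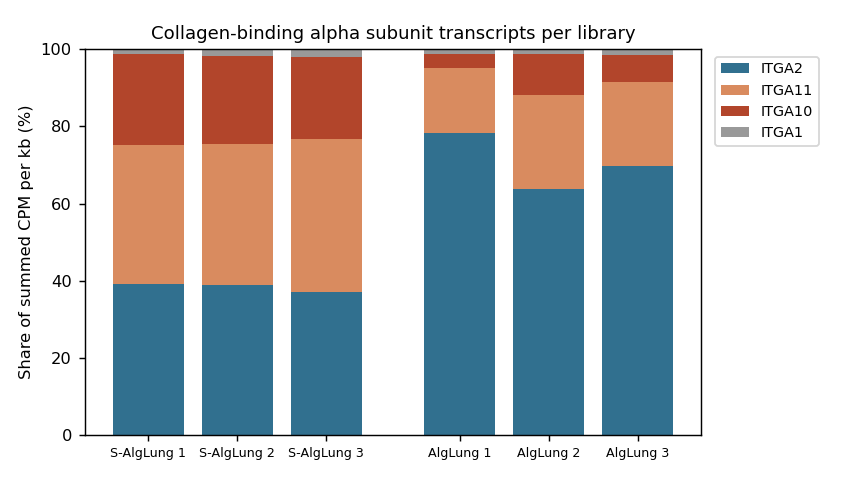
Share of each collagen-binding alpha chain in their summed CPM per kb (vertical axis, %), 1 stacked bar per library with the 3 S-AlgLung libraries on the left. ITGA2 takes 37.1% to 39.0% of each S-AlgLung bar and 63.8% to 78.2% of each AlgLung bar.

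The stretches just before the transcription starts of these 3 called collagen receptor genes are shown because the genes moved in opposite directions. They are the 250 bases before the RefSeq start in GRCh38.p14, read 5′ to 3′ on the gene's strand. Positions are chr1:145910051-145910300, minus strand, for ITGA10, chr15:68432164-68432413, minus strand, for ITGA11, and chr5:52989102-52989351, plus strand, for ITGA2. The annotation of the count table starts ITGA10 and ITGA2 inside these windows, a little before the RefSeq start. Capitals mark matches on either strand to a GC box (GGGCGG, bound by SP factors), an AP-1 site (TGANTCA) or a TEAD site (GGAATG).
ITGA10: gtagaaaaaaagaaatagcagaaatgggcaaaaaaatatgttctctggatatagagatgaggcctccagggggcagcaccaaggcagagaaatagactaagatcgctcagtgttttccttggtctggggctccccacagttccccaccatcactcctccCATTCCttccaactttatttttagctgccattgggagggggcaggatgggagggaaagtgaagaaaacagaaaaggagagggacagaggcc
ITGA11: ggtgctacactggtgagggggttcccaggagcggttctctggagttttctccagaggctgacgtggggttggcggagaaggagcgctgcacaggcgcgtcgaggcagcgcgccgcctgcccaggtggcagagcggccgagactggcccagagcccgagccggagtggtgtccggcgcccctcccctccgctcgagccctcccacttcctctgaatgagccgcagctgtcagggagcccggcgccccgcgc
ITGA2: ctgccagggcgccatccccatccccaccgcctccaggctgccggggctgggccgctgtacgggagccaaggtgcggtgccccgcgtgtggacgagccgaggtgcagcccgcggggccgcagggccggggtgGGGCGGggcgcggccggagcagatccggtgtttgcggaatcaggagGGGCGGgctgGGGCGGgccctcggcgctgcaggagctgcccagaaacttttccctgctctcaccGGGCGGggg
The ITGA2 stretch held 4 GC boxes and was 76.4% G or C, the ITGA11 stretch held none of the 3 motifs at 71.2%, and the ITGA10 stretch held a TEAD match 91 bases before the start and no GC box, at 48.4%. Over the same window of 35116 RefSeq promoters, 42.6% held a GC box, 6.57% an AP-1 match and 11.9% a TEAD match. A match is a run of letters and not a shown binding site.

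The laminin receptors had no called gene among their 4 tested chains. ITGA3, the alpha chain of α3β1, was the most abundant integrin alpha transcript per length in every library. It had 1729, 1566 and 996 CPM in S-AlgLung and 1116, 1400 and 1240 CPM in AlgLung; S-AlgLung replicate 3 was the lowest of the 6 and S-AlgLung replicate 1 the highest. Its log2 fold change was 0.19 (SE 0.28, edgeR adjusted p = 0.8481). ITGA6, which pairs with beta-1 or beta-4, had 73.1, 62.2 and 64.1 CPM in S-AlgLung, against 118, 83.2 and 101 CPM in AlgLung. The groups did not overlap, yet the log2 fold change of -0.60 missed the threshold (SE 0.23, edgeR adjusted p = 0.167; 0.05472 without S-AlgLung replicate 3). ITGB4, the beta chain of the hemidesmosome receptor α6β4, had 686, 607 and 302 CPM in S-AlgLung and 661, 746 and 550 CPM in AlgLung. S-AlgLung replicate 3 was far below the other 5 libraries, and the log2 fold change was -0.29 with it and -0.05 without it (SE 0.29 with it, edgeR adjusted p = 0.735 and 0.9393). ITGA7, a laminin receptor chain of muscle, was at 6.49 ± 0.877 CPM in S-AlgLung and 4.64 ± 0.922 CPM in AlgLung (SD, n = 3 each; edgeR adjusted p = 0.3834). It shares exon bases with BLOC1S1 on the other strand, and whether reads were counted by strand is not stated, so its value is uncertain.

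Of the 7 chains of RGD receptors 5 were tested and only ITGB8 was called. ITGB8 (ENSG00000105855; chromosome 7, 20330702 to 20415754, plus strand) encodes the partner of alpha-V in αVβ8, a receptor that binds and activates latent TGF-beta. It had 3.26, 2.41 and 2.49 CPM in S-AlgLung, against 7.74, 5.13 and 7.86 CPM in AlgLung. Each S-AlgLung library was below each AlgLung library, at a low level in both. The means of 2.72 ± 0.474 and 6.91 ± 1.55 CPM (SD, n = 3 each) gave a log2 fold change of -1.35 (SE 0.27, edgeR adjusted p = 0.001701), 2.55-fold lower in S-AlgLung. ITGB8 was called in all 13 alternatives, between -1.53 and -1.27 with a library left out.

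ITGAV, the common alpha chain of these receptors, was at 164 ± 35.4 CPM in S-AlgLung and 180 ± 46.5 CPM in AlgLung (edgeR adjusted p = 0.896), and ITGA5, the fibronectin receptor chain, at 123 ± 19.8 and 111 ± 15.8 CPM (SD, n = 3 each; edgeR adjusted p = 0.8675). ITGB5, which forms the vitronectin receptor αVβ5, had 533, 575 and 541 CPM in S-AlgLung and 685, 805 and 712 CPM in AlgLung. The hydrogels did not overlap for it, but its log2 fold change of -0.42 was not called (SE 0.25, edgeR adjusted p = 0.4888). ITGB3, the beta chain of the other vitronectin receptor, was at 1.31 ± 0.386 CPM in S-AlgLung and 1.10 ± 0.0417 CPM in AlgLung and shares exons with a neighbour on its strand. ITGB6, whose αVβ6 also activates latent TGF-beta in epithelium, was at or under 0.450 CPM in every library, and ITGA8, the nephronectin receptor chain, at or under 0.169 CPM.

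The chains of receptors for VCAM1 and tenascin, ITGA4 and ITGA9, were near the lower limit of detection. ITGA9 had 0.917 ± 0.194 CPM in S-AlgLung and 0.769 ± 0.110 CPM in AlgLung (SD, n = 3 each; edgeR adjusted p = 0.8633), and ITGA4 had at most 0.383 CPM in any library. None of the 3 leukocyte-type chains was called. ITGAE, the alpha chain of the E-cadherin receptor, had 7.07, 7.68 and 13.5 CPM in S-AlgLung and 8.89, 8.99 and 8.36 CPM in AlgLung, with S-AlgLung replicate 3 alone above the rest. Its log2 fold change was 0.11 with that library and -0.28 without it (edgeR adjusted p = 0.5383 without it). ITGB2 was at 7.71 ± 0.832 and 7.91 ± 1.06 CPM, and ITGB7, which shares exons with ZNF740, at 1.16 ± 0.479 and 1.16 ± 0.0611 CPM (S-AlgLung and AlgLung, SD, n = 3 each). Without S-AlgLung replicate 3 the log2 fold change of ITGB7 was 0.24, against -0.01 with all libraries, and it was not called (edgeR adjusted p = 0.7732).

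ITGB1, the chain shared by the collagen receptors and most laminin receptors, had 696, 709 and 655 CPM in S-AlgLung, against 1262, 838 and 1055 CPM in AlgLung. Each S-AlgLung library was below each AlgLung library, and the AlgLung libraries were the more scattered. The means of 687 ± 28.3 and 1052 ± 212 CPM (SD, n = 3 each) gave a log2 fold change of -0.62 (SE 0.26), which was not called (edgeR adjusted p = 0.2463), nor was it under any alternative, with adjusted p from 0.05702 with the DESeq2 Wald test to 0.6114 without AlgLung replicate 1 in edgeR. ITGB1 had the lowest log2 fold change of the 32 tested members that were not called.

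Per length, 3 beta chains made up nearly the whole beta pool. ITGB5 held 40.5% ± 6.45 in S-AlgLung and 39.8% ± 3.25 in AlgLung, ITGB4 36.2% ± 9.34 and 33.9% ± 3.46, and ITGB1 22.5% ± 2.85 and 25.6% ± 5.29 (SD, n = 3 each; exact 2-sided permutation p = 1, 0.7 and 0.5). ITGB5 had the largest share in S-AlgLung replicate 3 and in every AlgLung library, and ITGB4 in S-AlgLung replicates 1 and 2, so the order of these chains was not resolved in S-AlgLung. ITGB1 came after both except in S-AlgLung replicate 3, where it held 25.8% and ITGB4 25.7%. That place of ITGB1 depends on the listed lengths, which count exons of all isoforms. They are 14561 bases for ITGB1, 6515 for ITGB5 and 6761 for ITGB4. In CPM, not divided by length, ITGB1 was the highest of the 3 in every library. ITGB8 held under 0.2% of the pool everywhere, with 0.0854% ± 0.0137 in S-AlgLung and 0.162% ± 0.0419 in AlgLung. In the alpha pool ITGA3 held 73.7% ± 4.83 in S-AlgLung and 70.0% ± 4.14 in AlgLung (exact permutation p = 0.3). ITGA6 held 4.70%, 4.5% and 6.45% in S-AlgLung and 10.2%, 6.49% and 8.32% in AlgLung, without overlap (exact permutation p = 0.1). ITGA5 came next after ITGA3 in S-AlgLung at 8.57% ± 0.584, and in AlgLung its 8.22% ± 0.746 lay within the spread of ITGA6 (8.35% ± 1.87, SD, n = 3).

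The summed beta level was 233, 228 and 174 CPM per kb in S-AlgLung, against 292, 294 and 265 CPM per kb in AlgLung, and the summed alpha level was 196 ± 42.9 and 182 ± 9.89 CPM per kb (SD, n = 3 each; exact permutation p = 0.1 and 0.6). All 3 S-AlgLung libraries were below the AlgLung libraries in the beta sum, also with scaling by total counts, where it was 203 ± 11.3 in S-AlgLung and 294 ± 24.0 CPM per kb in AlgLung. With 3 libraries against 3 the exact test cannot go below 0.1, and over the 7 such tests the lowest adjusted p was 0.35. The comparison of summed levels was added after seeing the data.

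**Figure D4:**
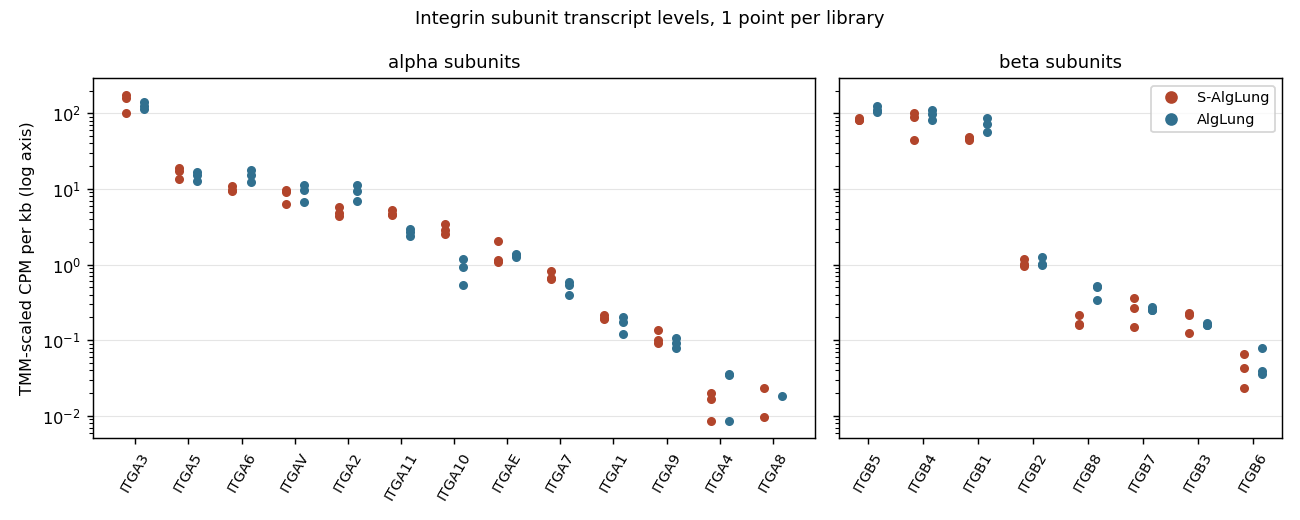
TMM-scaled CPM per kb (log axis) of each alpha chain (left) and beta chain (right), 1 point per library, S-AlgLung left of AlgLung for each gene; libraries with 0 counts, which occur only for ITGA8, are not drawn. ITGA3 stands above all other alpha chains, and ITGB5, ITGB4 and ITGB1 above all other beta chains, in both hydrogels.

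Among the focal adhesion proteins TNS1 was the only called gene of 19. TNS1 (ENSG00000079308; chromosome 2, 217799588 to 218033982, minus strand) encodes tensin-1, which links the beta tail to actin in fibrillar adhesions. It had 78.8, 69.1 and 66.5 CPM in S-AlgLung, against 38.1, 34.9 and 33.2 CPM in AlgLung. The lowest S-AlgLung library was far above the highest AlgLung library. The means of 71.4 ± 6.45 and 35.4 ± 2.48 CPM (SD, n = 3 each) differed 2.02-fold (log2 fold change 1.01, SE 0.22, edgeR adjusted p = 0.003088). The call was lost without AlgLung replicate 3 (0.92, edgeR adjusted p = 0.09496) and kept under the other 12 alternatives. The other tensins were not called: TNS3 was at 250 ± 10.8 CPM in S-AlgLung and 266 ± 10.7 CPM in AlgLung, TNS2 at 103 ± 28.6 and 93.2 ± 11.1 CPM, and TNS4, a tensin without the actin-binding part, at 50.4 ± 14.5 and 46.1 ± 4.0 CPM (SD, n = 3 each; edgeR adjusted p = 0.9333, 0.8807 and 0.8859). TNS2 shares exons with a gene on the other strand. The difference between TNS1 and the other tensins was not itself tested.

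VCL, the gene of vinculin, which reinforces the link of talin to actin under load, had 83.4, 94.7 and 89.8 CPM in S-AlgLung, against 144, 114 and 148 CPM in AlgLung. The hydrogels did not overlap. Its log2 fold change of -0.60 (SE 0.23) was not called in edgeR (adjusted p = 0.1695), but it was with the DESeq2 Wald test (-0.62, adjusted p = 0.04425) and in edgeR without S-AlgLung replicate 3 (-0.64, adjusted p = 0.04334). It shares exon bases with AP3M1 on the other strand, which had 34.8% as many counts. Of the other adaptors, ZYX, the gene of the strain-sensing protein zyxin, had 373, 288 and 145 CPM in S-AlgLung and 182, 235 and 208 CPM in AlgLung. S-AlgLung replicate 3 was the lowest of the 6 libraries while the other S-AlgLung libraries were the highest, and the log2 fold change was 0.37 with it and 0.63 without it (edgeR adjusted p = 0.633 and 0.05328). PXN, the gene of the scaffold paxillin, was at 129 ± 16.0 CPM in S-AlgLung and 149 ± 22.0 CPM in AlgLung, and BCAR1, the gene of p130Cas, at 120 ± 24.3 and 114 ± 11.5 CPM (SD, n = 3 each; edgeR adjusted p = 0.7815 and 0.9387).

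The proteins that activate integrins from inside had no called gene. TLN1, the main talin, had 470, 571 and 284 CPM in S-AlgLung and 398, 462 and 414 CPM in AlgLung, again with S-AlgLung replicate 3 lowest (log2 fold change 0.06, edgeR adjusted p = 0.9673; 0.26 and 0.5565 without that library). TLN2 was at 7.98 ± 0.882 CPM in S-AlgLung and 10.9 ± 0.913 CPM in AlgLung (edgeR adjusted p = 0.3458), and the kindlins FERMT1 and FERMT2 at 8.41 ± 0.146 and 11.8 ± 1.16 CPM in S-AlgLung, against 10.8 ± 1.88 and 16.4 ± 2.57 CPM in AlgLung (SD, n = 3 each; edgeR adjusted p = 0.5145 and 0.2925). For these last 3 genes all S-AlgLung libraries lay below all AlgLung libraries.

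Neither focal adhesion kinase gene was called. PTK2, the gene of focal adhesion kinase itself, was at 89.7 ± 2.94 CPM in S-AlgLung and 89.2 ± 13.4 CPM in AlgLung (SD, n = 3 each; edgeR adjusted p = 0.9959), and its sign changed with the scaling (log2 fold change 0.01 with TMM factors and -0.10 with total counts) and without S-AlgLung replicate 3 (-0.05). PTK2B, its relative Pyk2, had 32.5, 34.7 and 26.2 CPM in S-AlgLung and 40.3, 49.5 and 38.1 CPM in AlgLung (log2 fold change -0.45, SE 0.21, edgeR adjusted p = 0.3099), without overlap. The ILK complex joins the beta tail to actin through ILK, a PINCH protein and a parvin. None of its 4 members was called and all 4 had negative log2 fold changes, from -0.38 for PARVA to -0.09 for ILK, which turned to 0.07 without S-AlgLung replicate 3. Over all tested genes 53.4% had a positive log2 fold change, and the shared sign of these 4 was not tested. The values of ILK and PARVB are uncertain, since each shares exons with another gene. PARVA was at 78.0 ± 4.57 CPM in S-AlgLung and 102 ± 6.53 CPM in AlgLung, LIMS1 at 23.4 ± 3.24 and 28.8 ± 7.22 CPM, PARVB at 40.4 ± 9.76 and 48.0 ± 7.91 CPM, and ILK, which overlaps TAF10, at 128 ± 37.6 and 136 ± 30.1 CPM (SD, n = 3 each). CAV1, the caveolin of membrane invaginations that meets integrins at the membrane, was at 69.5 ± 11.7 CPM in S-AlgLung and 68.2 ± 10.4 CPM in AlgLung (log2 fold change 0.03, edgeR adjusted p = 0.9836; -0.15 and 0.7269 without S-AlgLung replicate 3).

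A further 45 genes of focal adhesions, taken by name with earlier results of these data known, were set beside these. Of 42 tested, 1 was called higher and 0 lower in edgeR (2.38% called, against 5.14% of all tested genes), with a median log2 fold change of -0.16. FYN, a Src-family kinase, had 2.18, 1.94 and 1.74 CPM in S-AlgLung, against 0.690, 0.585 and 1.03 CPM in AlgLung. Its groups did not overlap, at low counts (log2 fold change 1.33, SE 0.37, edgeR adjusted p = 0.03016). The call was lost with total counts (adjusted p = 0.1138) and without S-AlgLung replicate 1 (0.1274) or AlgLung replicates 1 (0.1499) or 2 (0.145), in edgeR. SRC itself was at 1015 ± 61.4 CPM in S-AlgLung and 954 ± 109 CPM in AlgLung (SD, n = 3 each; edgeR adjusted p = 0.9387). The uncalled genes with the lowest p in their classes were RAP1B (log2 fold change -0.53), KANK2 (-0.45) and RAP1A (-0.33) among regulators of integrin activity. They were LIMS2 (-0.79) and RSU1 (-0.39) among relatives of the ILK complex, YES1 (-0.46), PAK1 (0.38) and PTPN11 (-0.30) among kinases and phosphatases, ELMO1 (0.51), DLC1 (0.50) and NCK2 (0.35) among adaptors, and LPP (-0.48), ENAH (-0.29) and TRIP6 (-0.28) among actin-linking and LIM proteins. Their edgeR adjusted p ran from 0.1993 for LIMS2 to 0.667 for TRIP6.

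The genes of integrin ligands were described by the class of receptor that binds them. Of 44 ligand genes 36 were tested, and 11 were called, 6 higher and 5 lower (30.6%, against 5.14% of all tested genes). The list was chosen with earlier results of these data known, so these shares carry no test. The median log2 fold change was 0.18. Of these calls, 6 held under all 13 alternatives: LAMA3, COL5A1, COL6A2, FBN1, LRRC32 and TNC. LRRC32, which docks a ligand and is not one itself, passed the low-count filter of the main fit only through S-AlgLung, where it was higher. Its place among the 11 calls and among these 6 is thus no support for a difference.

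**Figure D5:**
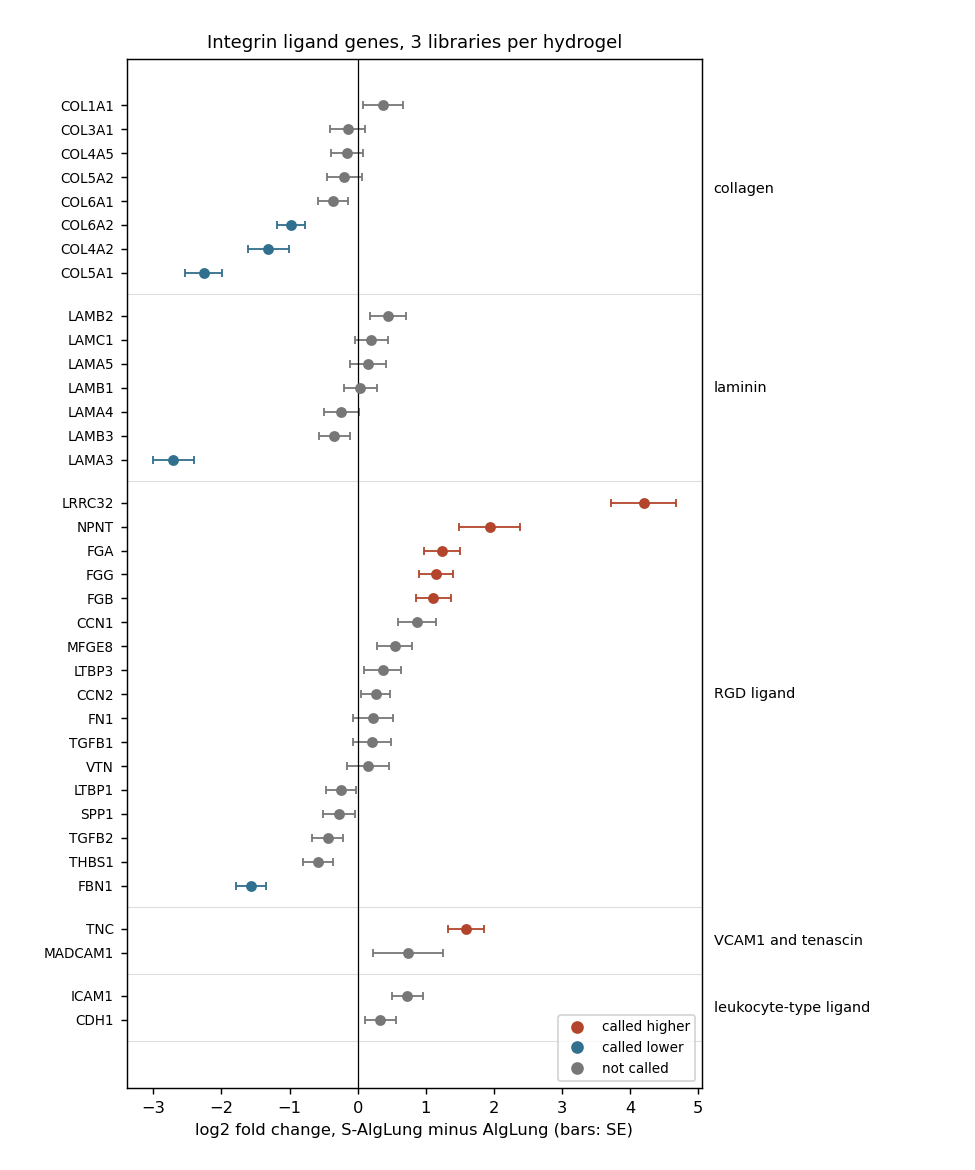
Log2 fold change of the 36 tested integrin ligand genes by the receptor class that binds them (horizontal axis, S-AlgLung minus AlgLung; bars, SE; 3 libraries per hydrogel). LRRC32 at 4.20 and LAMA3 at -2.71 are the extremes, and the called collagen genes all lie to the left of 0.

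Of 8 tested collagen genes, ligands of the alpha chains described first, 3 fell and none was called higher. COL5A1, a chain of the fibril-nucleating type V collagen, had 1.54, 1.52 and 1.46 CPM in S-AlgLung, against 8.24, 6.70 and 6.79 CPM in AlgLung (log2 fold change -2.26, SE 0.28, edgeR adjusted p = 3.333e-06). COL4A2, of basement membrane collagen IV, had 1.59, 1.77 and 1.39 CPM, against 3.53, 4.68 and 3.60 CPM (S-AlgLung against AlgLung; log2 fold change -1.31, SE 0.30, edgeR adjusted p = 0.006052; 0.06157 without AlgLung replicate 2). COL6A2, a chain of the pericellular collagen VI, was at 20.7 ± 2.15 CPM in S-AlgLung and 40.8 ± 1.85 CPM in AlgLung (SD, n = 3 each; log2 fold change -0.98, edgeR adjusted p = 0.003077). For these 3 genes no S-AlgLung library reached an AlgLung library. The most abundant collagen gene of the list per length, COL5A2, was at 615 ± 91.9 CPM in S-AlgLung and 704 ± 58.5 CPM in AlgLung, or 84.1 ± 12.6 and 96.2 ± 8.0 CPM per kb, and was not called (edgeR adjusted p = 0.826). The uncalled collagen genes with the lowest p were COL6A1 (log2 fold change -0.36), COL1A1 (0.37) and COL5A2 (-0.19).

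Of the 7 tested laminin chains reported, 1 fell. LAMA3, the alpha chain of laminin-332, the ligand of α3β1 and α6β4 made by epithelium, had 2.77, 2.32 and 6.08 CPM in S-AlgLung, against 32.4, 18.2 and 23.1 CPM in AlgLung, 6.54-fold lower in S-AlgLung (log2 fold change -2.71, edgeR adjusted p = 7.902e-07; -3.30 without S-AlgLung replicate 3). LAMB3, the beta chain of the same laminin, was at 84.7 ± 17.8 CPM in S-AlgLung and 107 ± 6.73 CPM in AlgLung (SD, n = 3 each; log2 fold change -0.34, edgeR adjusted p = 0.5638). Besides LAMB3, the uncalled laminin chains with the lowest p were LAMB2 (log2 fold change 0.45) and LAMA4 (-0.24). LAMA5, of the laminin-511 of adult basement membranes, was at 820 ± 183 CPM in S-AlgLung and 739 ± 142 CPM in AlgLung (SD, n = 3 each; edgeR adjusted p = 0.8859).

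Among 17 tested genes of the RGD ligand class, which also holds LRRC32, the docking partner of a ligand, 5 rose and 1 fell. The fibrinogen genes, whose protein carries RGD motifs, rose together; they lie side by side on chromosome 4, from 154563011 for FGB to 154612967 for FGG. FGA had 1479, 1792 and 1693 CPM in S-AlgLung, against 645, 726 and 735 CPM in AlgLung (log2 fold change 1.24, SE 0.27, edgeR adjusted p = 0.00342). FGB had 768, 914 and 817 CPM in S-AlgLung, against 427, 344 and 384 CPM in AlgLung (log2 fold change 1.11, edgeR adjusted p = 0.006587). FGG had 592, 648 and 775 CPM in S-AlgLung, against 335, 273 and 300 CPM in AlgLung (log2 fold change 1.15, edgeR adjusted p = 0.004639). The lowest S-AlgLung library was above the highest AlgLung library for all 3 genes. With a library left out, FGA was lost without AlgLung replicates 1 (edgeR adjusted p = 0.05449) or 3 (0.06482), FGB without AlgLung replicates 2 (0.07832) or 3 (0.1269), and FGG without the same ones as FGB (0.06753 and 0.09876).

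LRRC32, the gene of GARP, which holds latent TGF-beta on the cell surface for αVβ8, had 3.13, 2.83 and 9.45 CPM in S-AlgLung, against 0.268, 0.405 and 0.166 CPM in AlgLung. It is a docking partner of a ligand and not itself an RGD protein. Its log2 fold change was 4.20 (SE 0.47, edgeR adjusted p = 9.971e-07) with all libraries and 3.37 without S-AlgLung replicate 3, its highest library. Because LRRC32 passed the low-count filter of the main fit only through S-AlgLung, this call is no support for a difference. NPNT, the gene of nephronectin, had 1.04, 1.6 and 2.24 CPM in S-AlgLung, against 0.498, 0.180 and 0.579 CPM in AlgLung (log2 fold change 1.94, SE 0.45, edgeR adjusted p = 0.006365; 0.08985 without AlgLung replicate 2). FBN1, the microfibril gene, fell to 11.4 ± 0.934 CPM in S-AlgLung, against 33.7 ± 5.43 CPM in AlgLung (SD, n = 3 each; log2 fold change -1.57, edgeR adjusted p = 2.015e-05). TGFB1, TGFB2, LTBP1 and LTBP3, genes of latent TGF-beta and its binding proteins, were not called (edgeR adjusted p from 0.3917 to 0.8279). FN1, the gene of fibronectin, was at 7966 ± 447 CPM in S-AlgLung and 6801 ± 687 CPM in AlgLung (SD, n = 3 each), not called at a log2 fold change of 0.23 (edgeR adjusted p = 0.8151). EDIL3, untested for low counts (63 in all), was at 0.380 to 0.959 CPM in S-AlgLung and at 0.0450 to 0.153 CPM in AlgLung. It was fitted in 5 alternatives and called higher in 4 of them, with no low-count filter (edgeR adjusted p = 0.001734) and without S-AlgLung replicate 2 (0.0005) or AlgLung replicates 1 (0.02481) or 3 (0.01362), but not without AlgLung replicate 2 (0.07579). In the fits that left out a library, EDIL3 passed the filter only through S-AlgLung, where it was higher. Those calls are thus no support for a difference.

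The uncalled RGD ligands with the lowest p were CCN1, THBS1 and MFGE8. CCN1 had 8.61, 7.47 and 18.2 CPM in S-AlgLung and 6.90, 5.89 and 6.04 CPM in AlgLung, with S-AlgLung replicate 3 far above the rest. Its log2 fold change was 0.87 with that library (edgeR adjusted p = 0.06749) and 0.32 without it (0.4629). It was called higher with no low-count filter (edgeR adjusted p = 0.0179), with the replicate block (0.0225) and without S-AlgLung replicate 2 (0.004368). The other 2 genes, THBS1 and MFGE8, gained a call only when S-AlgLung replicate 3 was left out. THBS1 moved from -0.58 (edgeR adjusted p = 0.1493) to -0.74 (0.01009), called lower. MFGE8 moved from 0.54 (edgeR adjusted p = 0.3116) to 0.67 (0.03528), called higher. TNC, the gene of tenascin-C, a ligand of α9β1 and αV receptors, had 11.2, 10.5 and 14.2 CPM in S-AlgLung, against 5.25, 2.65 and 4.01 CPM in AlgLung (log2 fold change 1.59, SE 0.26, edgeR adjusted p = 0.0001561). MADCAM1, of the same class, was at 0.74 (edgeR adjusted p = 0.5808) at under 1 CPM. Of the leukocyte-type ligands, ICAM1 was at 13.1 ± 1.68 CPM in S-AlgLung and 7.87 ± 0.734 CPM in AlgLung (SD, n = 3 each), uncalled at an edgeR adjusted p of 0.05496 and called with the DESeq2 Wald test (0.03758) and, in edgeR, with the replicate block (0.01741) and without S-AlgLung replicate 2 (0.04697); it shares exon bases with a gene on the other strand. CDH1, the gene of E-cadherin, was at 0.33 (edgeR adjusted p = 0.5638).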

How the data were processed

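RNA sequencing measured gene expression in 6 libraries of A549 cells, 3 in S-AlgLung and 3 in AlgLung, grouped by the sample titles. Per the submitters' processing notes, alignment by the authors used STAR 2.7.3a on GRCh38, and featureCounts gave the gene counts; its version, annotation release and strand option were not given in the sources used here. Deposited values are raw read counts, whole numbers without normalization, beside a gene length in bases that equals the union of the listed exons for every gene. AlgLung replicate 1 had 2 columns with 0 differing genes, counted as 1 sample. All 62703 lines name a gene; of their IDs, 62625 were found in the table of gene names, 42300 with a symbol.

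filterByExpr (minimum count 10) kept 18544 genes. With TMM factors and no block, edgeR 4.0.16 (R 4.3.3) fitted all of them with its quasi-likelihood F test. A Benjamini-Hochberg adjusted p under 0.05 was called. SE was approximated from the log2 fold change and the F statistic (its size over the root of F). The biological coefficient of variation was 0.215, and the script was tested on simulated data. It recovered 8.8% of 1.5-fold changes, 48% of 2-fold changes and 96% of 4-fold changes there. A gene that was not called is thus not shown to be unchanged. CPM are TMM-scaled, and CPM per kb divide by the listed length, which counts exons of all isoforms. Shares and summed levels were compared with an exact 2-sided permutation test over libraries. A value is called uncertain where an exon-overlapping gene had at least 25% of its counts, as for 12 of the 40 genes (ILK, ITGA1, ITGA4, ITGA7, ITGA9, ITGB3, ITGB6, ITGB7, PARVB, PXN, TNS2 and VCL), of which none was called. Among the other genes named here, CD68, ICAM1, KRT8, KRT18, MALAT1, PTPN11, SFTPC, TGFB1 and THY1 had such an overlap too, so their values are also uncertain.

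The 40 genes, the ligand list, the further focal adhesion list and the markers were chosen with earlier results of these data known, so no set test and no p adjusted over a list is given; some genes are not reported here. Full values are given for members called in any analysis and for chains with at least 10% of their pool in a library, every called gene of the other lists, and up to 3 uncalled genes per class with the smallest p; others named were chosen after their values were seen. The 13 alternatives took scaling from DESeq2 size factors or total counts, the test from DESeq2 1.42.0 (Wald) or limma-voom (limma 3.58.1), and the filter as none or as a mean of 1 CPM; 1 blocked on replicate number and 6 left out a library. Promoter sequences are from RefSeq (GRCh38.p14), which has an entry for 29 of the 40 genes.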

Additional observations from a re-analysis of the deposited data

How the results depend on the processing

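Of the 37 tested members, 21 kept their direction and their side of the threshold in all 13 alternatives. With total counts only, the median log2 fold change of all genes moved by -0.10, 333 genes were called higher (584 with TMM factors) and FYN, the 1 further focal adhesion gene called, was lost, leaving 0. With a library left out, 289 to 891 genes were called higher and 244 to 662 lower, the most without S-AlgLung replicate 3. Among members, 1 to 3 were called higher and 1 to 3 lower, the fewest without AlgLung replicate 3 (higher) and AlgLung replicate 1 or 3 (lower). Among ligands, 3 to 9 were called higher, with 3 without AlgLung replicate 2, and 4 to 6 lower; among further focal adhesion genes 0 to 1 were called higher. The difference in share of ITGB4 ran from -1.43 to 7.5 percentage points and that of ITGB5 from -2.93 to 3.32.

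Among members, direction reversed only for uncalled genes. With total counts, PTK2 went to -0.10, TLN1 to -0.0742, CAV1 to -0.0659 and BCAR1 to -0.0311; PTK2 was also at -0.00632 with DESeq2 size factors, -0.00638 with the DESeq2 Wald test and -0.00472 without a filter. With a library left out, log2 fold changes ran from -0.00365 to 0.24 for ITGA5, -0.32 to 0.0320 for ITGAV, -0.28 to 0.28 for ITGAE, -0.15 to 0.0736 for ITGB2, -0.33 to 0.24 for ITGB7, -0.11 to 0.0568 for PTK2, -0.17 to 0.26 for TLN1, -0.34 to 0.0677 for ILK, -0.0792 to 0.18 for BCAR1, -0.0677 to 0.30 for TNS2, -0.0591 to 0.31 for TNS4 and -0.15 to 0.10 for CAV1. The cause of these changes was not tested.

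Replicate numbers appear in the sample titles, but the samples were taken to share only a number: the deviations of same-numbered libraries correlated at 0.07, 0.29 and 0.04, not all over 0.1. S-AlgLung replicates 1 and 2 correlated best with their own number, and replicate 3 with AlgLung replicate 1 (0.21). With the replicate block, 800 genes were called higher and 500 lower, and among the members again 3 higher and 2 lower. Low counts left ITGA4, ITGA8 and ITGB6 untested, and among tested members ITGA9, ITGB7 and ITGB3 had the fewest counts (125, 167 and 178 in all).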

Other observations

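Of 5 integrin alpha genes outside the list of 40, 4 were tested and all 4 had positive log2 fold changes, as had 53.4% of all tested genes. Their shared sign was not tested, and ITGA2B did not pass the alternative filter of a mean of 1 CPM. ITGAM, the alpha chain of the complement receptor αMβ2 of myeloid cells, had 3.81, 4.22 and 5.15 CPM in S-AlgLung, against 2.72, 1.89 and 2.07 CPM in AlgLung (log2 fold change 0.98, SE 0.29, edgeR adjusted p = 0.04046). The groups did not overlap. The call was lost with total counts (adjusted p = 0.2049) and without S-AlgLung replicates 1 (0.06554) or 3 (0.06114) or AlgLung replicates 1 (0.06234), 2 (0.1668) or 3 (0.2816), in edgeR. ITGA2B was at 1.27, ITGAL at 0.71 and ITGAX at 0.47, none of them called (edgeR adjusted p = 0.1993, 0.2704 and 0.3471), while ITGB2, the beta chain of ITGAM, ITGAL and ITGAX, was at -0.04, and ITGB3, the partner of ITGA2B, was at 0.25. Of 6 leukocyte markers, 4 were tested and 2 called higher, CD68 and ITGAM, against 3.15% of all tested genes. The list summed to 167 to 192 CPM in S-AlgLung and 71.2 to 109 CPM in AlgLung, and CD68 made up most of that sum. CD68 shares 1765 of its 2163 exon bases with a gene on its strand. That gene had 115207 counts where CD68 had 17615, so the value of CD68, its call and the sum are uncertain. The defining markers PTPRC and CD3E were at 0 in all libraries but S-AlgLung replicate 2, where they had 0.211 and 0.0844 CPM.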
